A study of Mus musculus with 12 samples.

Results

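The genes of MHC class I antigen presentation were followed in dermal papilla (DP) cells of the mouse hair follicle. The DP is the cluster of specialized mesenchymal cells at the base of the follicle. The members were the 9 genes H2-K1, H2-D1, B2m, Tap1, Tap2, Tapbp, Psmb8, Psmb9 and Nlrc5, found by their exact symbols in the tables of both ages. All 9 of 9 were present, among 14986 genes listed at both ages. All 9 also passed the filter of a mean of at least 10 normalized reads in every comparison. RNA was taken from 12 libraries of sorted YFP-positive cells, with 3 mice each of control and dMF1/2 mice at postnatal days 14 (P14) and 16 (P16), both in the growth phase (anagen). The dMF1/2 mice were Cor-cre/+; Fgfr1Flox/Flox; Fgfr2Flox/Flox and so lack both Fgf receptors in Corin-expressing cells. The labels call the other mice wild type control. The YFP reporter needs Cre, and the 1 control genotype of these crosses that the methods list with Cre is Cor-cre/+; Fgfr1Flox/+; Fgfr2Flox/+, so the sorted control cells may themselves carry 1 deleted copy of each receptor gene. Cor-cre, the Corin allele that expresses Cre in the DP, and the ROSA26 YFP reporter are shared by all groups under that reading. Sex and the H2 haplotype of the mice were not given in the sources used here.

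Class I molecules display peptides from inside the cell to cytotoxic T cells. A polymorphic heavy chain (H2-K1 or H2-D1 here) pairs with the light chain B2m. Peptides are cut by the proteasome, whose subunits Psmb8 and Psmb9 replace constitutive ones in cells exposed to interferon, are carried into the endoplasmic reticulum by the Tap1 and Tap2 transporter, and are loaded with the help of tapasin (Tapbp). Nlrc5 is the coactivator of class I genes, recruited through factors bound to their promoters. The lower part of the anagen follicle is regarded as a site of immune privilege, where class I display is low. All members except B2m and Nlrc5 lie in the MHC region of chromosome 17.

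Depth ranged from 19302358 to 29860750 reads per library over the listed genes. The values below are normalized reads, reads divided by a size factor for the library, put on 1 scale for all 12 libraries. Fgfr1 was at 7855 to 10108 in P14 control and 6451 to 7510 in P14 dMF1/2 libraries, and at 8370 to 12337 and 6121 to 7837 at P16. Fgfr2 overlapped between genotypes at both ages, with 4547 to 5279 in control and 3704 to 5470 in dMF1/2 libraries. Reads were summed over whole genes, so any transcripts that lack the deleted exons would still be counted. Exons were not counted singly, and the extent of the deletion was not tested. The sorted cells carried DP markers, with Corin at 2736 to 42680, Alpl at 219 to 3821, Vcan at 13235 to 26397 and Lef1 at 1285 to 4702. Leukocyte markers were low but not all near 0. Those at the bottom were Ptprc (CD45) at 0 to 10.2, Cd3d at 0.917 to 7.54, Adgre1 at 0 to 9.69 and Laptm5 at 0 to 10.4. Of 34 immune markers 18 were listed at both ages, and 13 of these had a median under 20 over the 12 libraries. The highest were Csf1r at 37.7 to 311, S100a8 at 22.4 to 257, Cd14 at 21.3 to 91.8, Kit at 17.9 to 88.6 and Cd68 at 10.1 to 45.1, and the sum of the 18 ranged from 391 to 671. In such bulk samples a smaller share of cells and less RNA per cell cannot be told apart.

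In several genes of this family 3 P14 libraries stood apart, and they are given first because they touch the results on H2-D1. H2-Q2, a class I heavy chain gene, was at 0.944 in P14 control replicate 1, 3.41 in P14 dMF1/2 replicate 1 and 1.12 in P14 dMF1/2 replicate 3. In the other 9 libraries it was between 34.5 and 97.9. The same 3 libraries held 0, 1 and 1 reads of H2-Q1, against 13 to 33 in the other 9. Gm8909, another gene of this family, was at 1.89, 8.52 and 4.49 in those 3 libraries and at 31.7 to 58.7 in the others. Gm7030 departed from this pattern, with 0, 3 and 2 reads in those libraries but also 0 in P14 dMF1/2 replicate 2, against 7 to 35 in the other 8. The 3 libraries had the 3 lowest values of H2-D1, and they include mice of both genotypes. What sets them apart was not tested. Values without them are given for the members between the days and at P14, where the mutant then has 1 library, which is assumed to vary like the others.

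**Figure D1:**
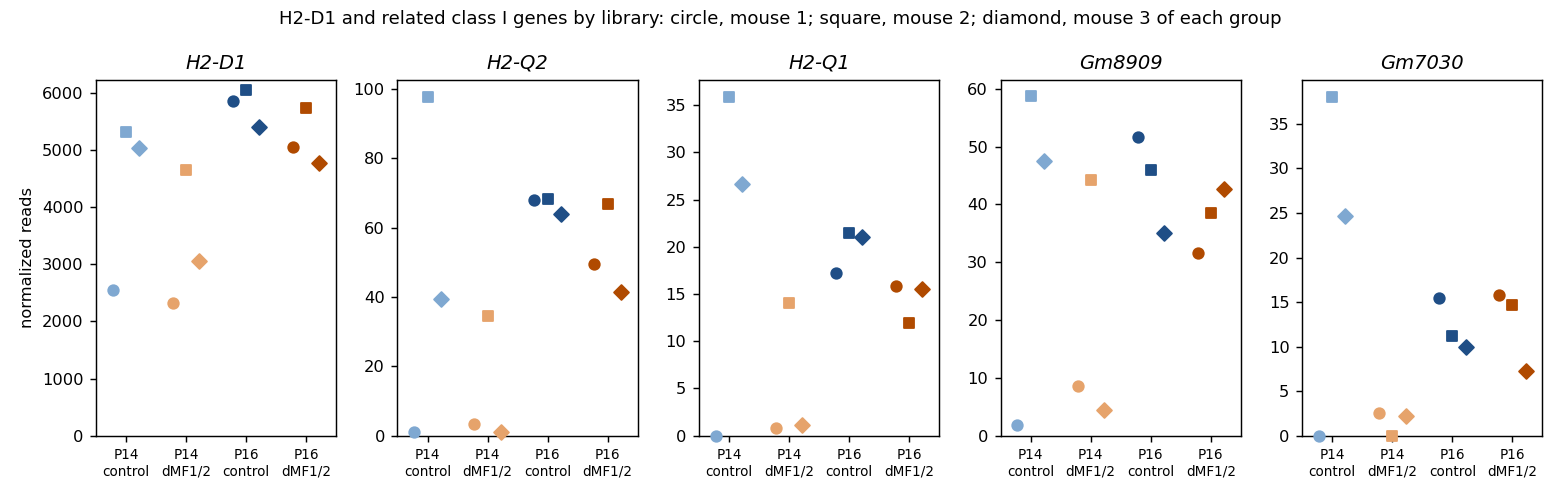
Normalized reads (vertical axes, linear, starting at 0, 1 scale for all libraries) of H2-D1 and 4 related class I genes in each of the 12 libraries, by group along the horizontal axis. P14 control mouse 1 and P14 dMF1/2 mice 1 and 3 lie at 3.41 or less for H2-Q2 and at 2326 to 3058 for H2-D1, below all 9 other libraries in both.

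To show what the promoters of these genes share, short stretches that hold the class I control elements are printed. In textbook accounts these are an NF-kappaB site (GGGGA followed at once by TTCCCC), an interferon-response element (searched in a long form, GAAA, any 2 bases and GAAA, and in a short form, GAA, any 2 bases and GAAA, which differ in spacing so that 1 does not contain the other) and, nearer the start, a TGACG core bound by CREB and ATF factors followed by a CCAAT box bound by NF-Y, the module on which Nlrc5 acts. The windows of the RefSeq table (build GRCm38.p6, 250 bases before to 50 bases after a gene's start) covered 7 of the 9 members, all except Tap2 and Nlrc5, and both strands were searched. In the lines below capitals mark the NF-kappaB site and, further on, the short interferon-response form, read on the opposite strand (H2-K1, H2-D1), or the long form (B2m).
H2-K1, chr17:34000429-34000458, minus strand: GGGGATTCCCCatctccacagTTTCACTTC
H2-D1, chr17:35262923-35262952, plus strand: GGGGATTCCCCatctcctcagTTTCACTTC
B2m, chr2:122147538-122147567, plus strand: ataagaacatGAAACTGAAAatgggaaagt
These stretches begin 111, 171 and 149 bases before the listed start site. H2-K1 has a second listed start, from which the distance is 125. The H2-D1 stretch lies inside the longer gene span given further below. The NF-kappaB letters were in 10 of 32851 promoter windows (0.0304%), and H2-K1 and H2-D1 were the members that held them. The short interferon-response form was in 7.52% of windows and, among members, in those of H2-K1 and H2-D1. The long form was in 3.44% of windows and, among members, in that of B2m. Nearer the start the same 3 genes held TGACG and the reverse of CCAAT at 1 fixed distance, both in capitals.
H2-K1, chr17:34000359-34000388, minus strand: TGACGcgcagtcagctcttacccccATTGG
H2-D1, chr17:35262993-35263022, plus strand: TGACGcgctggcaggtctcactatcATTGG
B2m, chr2:122147609-122147638, plus strand: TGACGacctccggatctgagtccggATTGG
These begin 41, 101 and 78 bases before the start, or 55 from the second start of H2-K1. TGACG and ATTGG at exactly this distance were in 31 of 32851 windows (0.0944%), whereas TGACG alone was in 20.8% and CCAAT in 37.4%. The windows of Tap1 and Psmb9, which are transcribed away from each other, overlap and hold 1 TGACG in common at chr17:34187470-34187474. A match is a description of letters and not a site shown to be bound.

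Levels can be compared between genes per length. Per kilobase of the longest principal transcript (APPRIS tag of GENCODE M21) the order of the 12-library means ± SD was B2m with 4481 ± 793 normalized reads, H2-D1 with 2212 ± 613, H2-K1 with 1503 ± 232, Tapbp with 1171 ± 162, Tap1 with 148 ± 17.2, Psmb8 with 145 ± 32.0, Tap2 with 125 ± 8.74, Psmb9 with 40.4 ± 13.03 and Nlrc5 with 8.68 ± 2.86. The heavy and light chains and tapasin were therefore in the upper levels of the transcriptome (94.3 to 98.7 percentile of 13347 genes), the transporter and Psmb8 near its median of 125 (49.9 to 54.7 percentile), and Psmb9 and Nlrc5 low (24.4 and 7.73 percentile). H2-D1 exceeded H2-K1 in 11 of 12 libraries, Tap1 exceeded Psmb8 in 6 and Psmb8 exceeded Tap2 in 10, and each other neighbour in the order was separated in 12 of 12. Per kilobase of all annotated exons Tapbp (935) stood above H2-K1 (828), and Tap2 (114) above both Tap1 (79.5) and Psmb8 (69.8), so the order within these groups depends on the length used. Nlrc5 and Psmb9 rest on few reads, 28 to 121 and 30 to 102 per library.

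**Figure D2:**
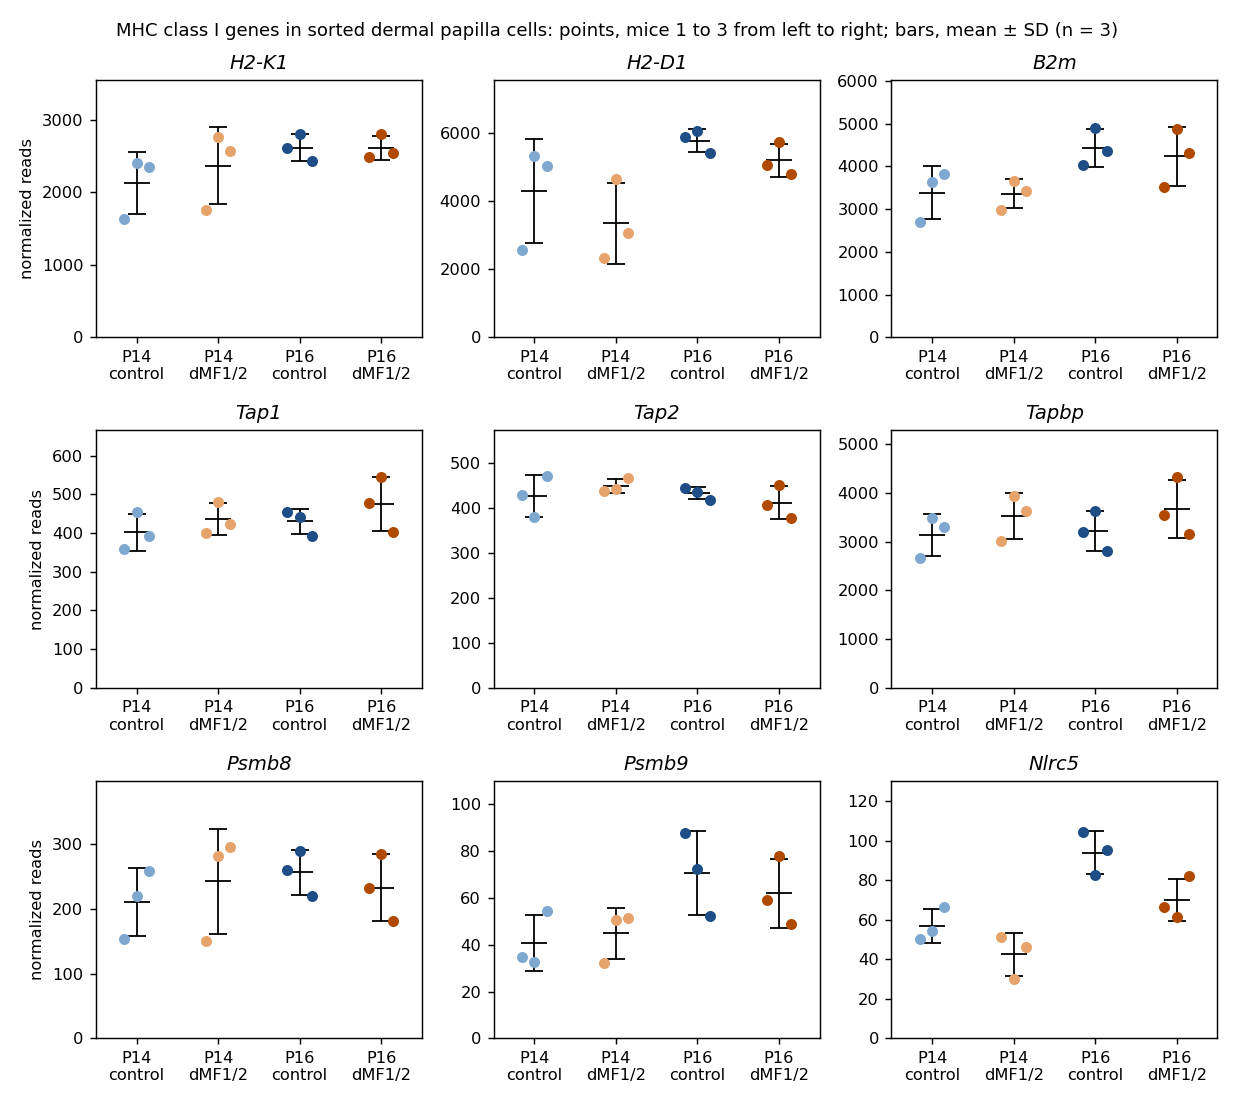
Normalized reads (vertical axes, linear, starting at 0, 1 scale for all libraries) of the 9 members in the 4 groups, with each point a mouse and bars giving mean ± SD of 3. Nlrc5 is at 50.01 to 66.2 in P14 control and at 82.6 to 104 in P16 control libraries, without overlap, whereas Tap1, Tap2 and Tapbp overlap among all groups.

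The first question was whether loss of Fgfr1 and Fgfr2 changed class I genes in the DP at P14. No member differed between the genotypes, 0 of 9, as for nearly all genes at this age (7 of 13334 tested, 0.0525%). The fitted log2 differences (dMF1/2 minus control) lay between -0.43 for Nlrc5 and 0.18 for Psmb8, with a median of 0.12 against 0.00 for all genes. Adjusted p values (limma, Benjamini-Hochberg) were at least 0.842. Without the 3 libraries the difference of H2-D1 was -0.15, that of H2-K1 0.22, Psmb8 0.25, Psmb9 0.26, Tap1 0.19, Tapbp 0.23, Tap2 0.07 and B2m -0.03, and that of Nlrc5 -0.96, which rests on the mutant library with the lowest Nlrc5 (30.1), and again 0 of 9 passed (adjusted p of at least 0.933). DESeq2 (1.4% of genes called) and edgeR (0.0525%) also called 0 of the 9, and 0 of the 9 had an unadjusted p under 0.05, as 7.32% of all genes did.

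H2-D1, a classical heavy chain, was at 2549, 5312 and 5029 in the P14 control libraries (replicates 1 to 3) and at 2326, 4650 and 3058 in the dMF1/2 libraries. The groups overlapped, and within each the libraries low in H2-Q2 were the low ones. The log2 difference was -0.34 with a 95% interval of -1.16 to 0.47, so that neither a halving nor a moderate rise is outside it. H2-K1, the other classical heavy chain, was at 1636, 2413 and 2350 in control and 1762, 2764 and 2577 in dMF1/2 libraries, a difference of 0.15 (-0.36 to 0.66). B2m, the shared light chain, was at 2693, 3647 and 3829 and at 2986, 3649 and 3435, a difference of 0.00 (-0.36 to 0.36). In both genes replicate 1 was the lowest library of its group in each genotype.

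The loading genes were closer together. Tap1 was at 359, 455 and 392 in control and 402, 481 and 423 in dMF1/2 libraries, a log2 difference of 0.12 (-0.17 to 0.42). Tap2 was at 430, 380 and 471 and at 438, 443 and 468, a difference of 0.08 (-0.17 to 0.34). Tapbp was at 2655, 3476 and 3304 and at 3019, 3947 and 3633, a difference of 0.17 (-0.17 to 0.51). All 3 overlapped between genotypes. Since numbers within a day are taken as pairs, the direction within pairs was also read. At P14 H2-K1, Tap1 and Tapbp were higher in the mutant in 3 of 3 pairs, as were 17.8% of all genes, and H2-D1 was lower in 3 of 3, as were 16.7%. In the paired fit 0 of 9 passed (adjusted p = 0.277 for H2-D1, limma).

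Of the immunoproteasome subunits, Psmb8 was at 154, 220 and 259 in P14 control and 150, 282 and 296 in dMF1/2 libraries, a log2 difference of 0.18 (-0.54 to 0.90). Psmb9 was at 34.9, 32.6 and 54.4 and at 32.4, 50.6 and 51.6, a difference of 0.15 (-0.55 to 0.85). Nlrc5 was at 50.01, 54.4 and 66.2 in control and 51.1, 30.1 and 45.98 in dMF1/2 libraries. Replicate 1 of the mutant exceeded the lowest control, so the groups overlapped, and the difference was -0.43 (-1.04 to 0.17, exact permutation test, two-sided, p = 0.2, where 0.1 is the smallest that 3 against 3 allows).

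At P16 the genotypes differed at 582 of 13457 genes (4.32%), and the question was whether class I genes were among them. None of the 9 was, with DESeq2 (7.88% of genes called) and edgeR (4.48%) also calling 0 of 9, and 1 of 9 (Nlrc5) had an unadjusted p under 0.05, as did 19.0% of all genes. The log2 differences lay between -0.42 and 0.19 with a median of -0.07. Nlrc5 was at 104, 82.6 and 95.1 in P16 control libraries and at 66.5, 61.5 and 82.0 in dMF1/2 libraries. All 3 mutant values were below all 3 control values, the highest mutant by a narrow margin, and 11.6% of all genes at P16 were separated in this direction. The difference was -0.42 (-0.82 to -0.01, adjusted p = 0.250, exact permutation p = 0.1, the smallest possible), which did not pass.

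The other members overlapped between genotypes at P16. H2-D1 was at 5863, 6044 and 5408 in control and 5055, 5732 and 4781 in dMF1/2 libraries, a log2 difference of -0.15 (-0.37 to 0.08). H2-K1 was at 2613, 2810 and 2436 and at 2490, 2805 and 2545, a difference of 0.00 (-0.20 to 0.21). Here the spread was small, and a change of H2-K1 beyond about this interval is outside what the libraries allow at that confidence. B2m was at 4033, 4902 and 4367 and at 3520, 4876 and 4304, a difference of -0.07 (-0.37 to 0.24).

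Among the loading genes at P16, Tap1 was at 454, 443 and 394 in control and 477, 544 and 404 in dMF1/2 libraries, a log2 difference of 0.14 (-0.15 to 0.44). Tap2 was at 446, 435 and 419 and at 407, 452 and 379, a difference of -0.07 (-0.29 to 0.16). Tapbp was at 3208, 3636 and 2814 and at 3538, 4321 and 3154, a difference of 0.19 (-0.13 to 0.51). In Tap1 and Tapbp replicate 2 was the highest mutant library and replicate 3 the lowest library of both genotypes. Psmb8 was at 260, 291 and 220 and at 232, 285 and 182, a difference of -0.15 (-0.57 to 0.27). Psmb9 was at 87.8, 72.4 and 52.1 and at 59.1, 78.0 and 48.8, a difference of -0.18 (-0.76 to 0.41). For both subunits replicate 3 was the lowest of each genotype. Within pairs Tap1 and Tapbp were higher in the mutant in 3 of 3 at P16, as were 3228 of 13457 genes, and H2-D1, B2m, Psmb8 and Nlrc5 were lower in 3 of 3, as were 24.1%. So Tap1 and Tapbp were higher and H2-D1 lower in all 3 pairs at both ages, while in the paired fit 0 of 9 passed at P16 (adjusted p = 0.106 for Tapbp, 0.366 for Tap1 and 0.212 for H2-D1, limma).

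Between P14 and P16 control follicles approach the end of growth, and 1951 of 13415 genes changed in control mice (14.5%). Of the 9 members 1 passed, Nlrc5, which rose from 56.9 ± 8.39 to 93.9 ± 10.8 normalized reads (SD, n = 3), a log2 change of 0.72 ± 0.22 (SE, adjusted p = 0.0465, limma) that edgeR (15.1% of genes called) and DESeq2 (18.0%) also called. Rises were called in 6.26% of all genes. All 3 P16 control libraries exceeded all 3 P14 control libraries (exact permutation p = 0.1, the smallest possible). The call lay close to the threshold. It was lost when any 1 of 5 of the 6 control libraries was left out (adjusted p up to 0.150) and held without P14 control replicate 3 (0.0434), and without the 3 libraries low in H2-Q2 the change was 0.63 with an adjusted p of 0.103. With no filter on low values the adjusted p was 0.0522, and in a fit of the control libraries alone it was 0.0605.

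The remaining control changes did not pass, and 3 of the 9 members (Nlrc5, Psmb9 and B2m) had an unadjusted p under 0.05, as did 31.9% of all genes. Psmb9 gave the largest estimate, 0.79 (95% interval 0.17 to 1.41, adjusted p = 0.0822), from 40.6 ± 11.9 to 70.7 ± 17.9 normalized reads with overlap between the days. It passed without P14 control replicate 3 (adjusted p = 0.0437). B2m was at 3390 ± 610 and 4434 ± 438, a change of 0.40 (0.06 to 0.74, adjusted p = 0.1004). H2-D1 was at 4297 ± 1520.4 and 5771 ± 328, a change of 0.50 ± 0.28 (SE), and H2-K1 at 2133 ± 431 and 2620 ± 187, a change of 0.32 (-0.07 to 0.70). In these 3 genes all P16 control values were above all P14 control values, as in 17.5% of all genes. Psmb8 (0.31), Tap1 (0.10), Tapbp (0.04) and Tap2 (0.03) overlapped between the days. All 9 estimates were above 0, as were 51.8% over all genes, although that of Tapbp turned to -0.08 without P14 control replicate 1 and to -0.06 without P16 control replicate 2, and that of Tap2 also turned below 0 in such omissions.

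In dMF1/2 mice 778 of 13415 genes changed between the days (5.8%) and 0 of the 9 members passed with limma and with edgeR (5.72% of genes called). DESeq2 (9.9%) called 1, Nlrc5, and 2 of the 9 (Nlrc5 and H2-D1) had an unadjusted p under 0.05, as did 22.8% of all genes. Nlrc5 was at 42.4 ± 10.9 normalized reads at P14 and 70.0 ± 10.7 at P16, a log2 change of 0.73 (0.26 to 1.21, adjusted p = 0.0700) without overlap between the days. Its estimate was close to that of control mice, and the difference of the changes was 0.01 (-0.65 to 0.68). H2-D1 was at 3345 ± 1188 and 5189 ± 490, a change of 0.69 (0.08 to 1.29, adjusted p = 0.161), also without overlap, as in 13.2% of all genes in this direction. The other 7 estimates lay between -0.13 for Tap2 and 0.46 for Psmb9. B2m gave 0.33 (-0.01 to 0.66) and H2-K1 0.17 (-0.22 to 0.55).

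What the day difference of H2-D1 rested on was not tested. The 3 libraries low in H2-Q2 were picked after seeing the values and hold the 3 lowest H2-D1 values, all at P14. Leaving them out must therefore shrink the rise of H2-D1. Without them the log2 change was 0.16 in control and 0.15 in dMF1/2 mice. In the latter this leaves a single P14 library, which is assumed to vary like the other groups. The remaining P14 values were 5312 and 5029 in control and 4650 in the mutant, each inside or next to the range of 4781 to 6044 at P16. Under the same omission the estimate of Nlrc5 was 0.63 in control mice, where its call was lost, and moved from 0.73 to 1.18 in dMF1/2 mice (adjusted p = 0.0751), where the P14 library left is the one with the lowest Nlrc5. Psmb9 gave 0.70 and 0.26, Psmb8 0.10 and -0.30, B2m 0.24 and 0.20, H2-K1 0.14 and -0.08, Tap1 0.02 and -0.03, Tapbp -0.08 and -0.12, and Tap2 0.03 and -0.10 in control and dMF1/2 mice.

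**Figure D3:**
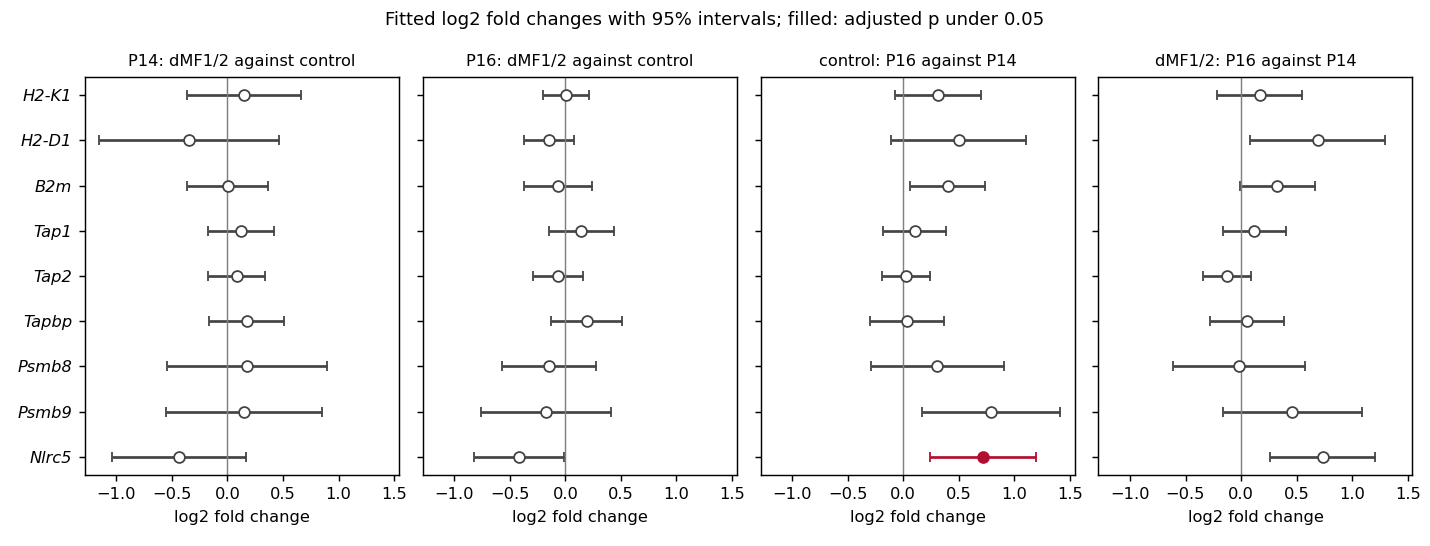
Fitted log2 fold changes (horizontal axes) of the 9 members with 95% intervals in 4 comparisons, 3 libraries per group, where the filled point passed an adjusted p of 0.05 over all genes. Nlrc5 between P14 and P16 in control mice (0.72) is the filled point, and the H2-D1 and Psmb8 intervals are the widest among heavy chain and proteasome genes at P14.

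Whether the change between the days differed between the genotypes was tested as an interaction. No member passed (0 of 9), with estimates from -0.33 for Psmb8 and Psmb9 to 0.19 for H2-D1, and 0 of 13415 genes passed in all (0.0%), with 648 (4.83%) at an unadjusted p under 0.05, edgeR also at 0.0% and DESeq2 at 6 (0.04%). The intervals of single members were wide, such as -1.21 to 0.55 for Psmb9, so a moderate difference in either direction was not detectable.

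The members varied unequally among mice of 1 group. The pooled within-group SD of log2 values was 0.40 for H2-D1, 0.38 for Psmb8 and 0.37 for Psmb9, against 0.11 for Tap2 and 0.16 for Tap1. H2-D1 spread more at P14, with a coefficient of variation of 35.4% in control and 35.5% in dMF1/2 mice, than at P16 with 5.68% and 9.44%. When each library's deviation from its own group mean was followed over the 12 libraries, 28 of 28 pairs of the 8 members other than Nlrc5 had a Pearson r above 0, with a median of 0.69. The highest was 0.93, between H2-K1 and H2-D1. Nlrc5 was at 0.00 with Tap2, below 0 with the others, and reached -0.54 with Tap1. These values are descriptions over 12 libraries that share depth and sorting, without a test, and 36 pairs were computed. Pairs of other genes were not set beside them. Genes outside class I followed the mean of the members at r up to 0.99 (Clcn4, below).

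**Figure D4:**
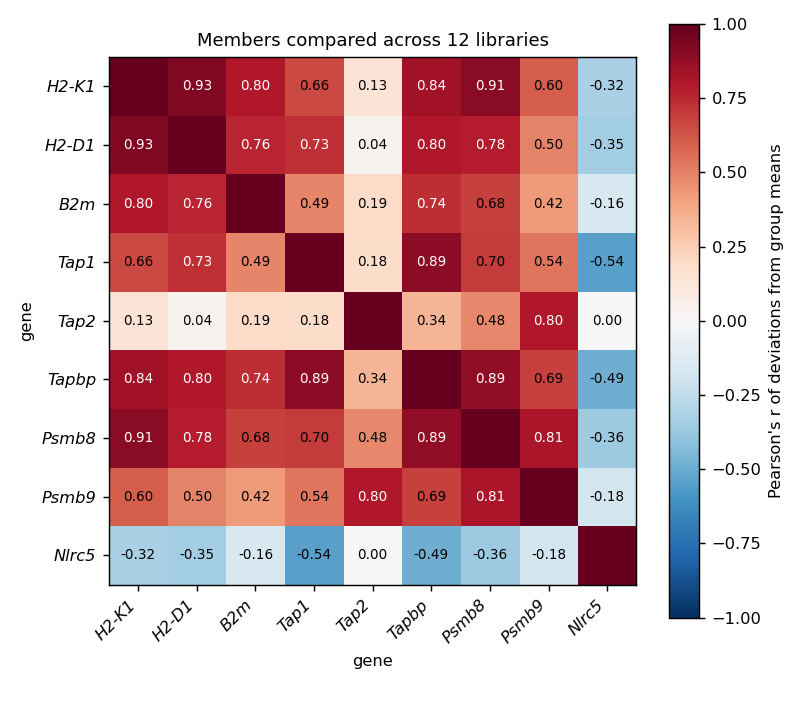
Pearson's r (colour scale from -1 to 1, values printed) between members of the deviations of 12 libraries from their group means, on log2 normalized reads plus 1. H2-K1, H2-D1, B2m, Tapbp and Psmb8 form a block with r of 0.68 to 0.93, Tap2 is at 0.13 with H2-K1 and 0.04 with H2-D1, and Nlrc5 is at 0.00 with Tap2 and below 0 with the others.

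P14 control replicate 1 and P14 dMF1/2 replicate 1 were the lowest in the mean standardized deviation of the 9 members (-0.99 and -0.81), and P14 control replicate 3 the highest (0.77). The same pair of libraries was lowest in the summed level of 11 dermal fibroblast markers, of which Col1a1 and Col3a1, the chains of fibrillar collagens, made up most. In P14 control mice the sum was 2631824 in replicate 1 against 6634889 and 6738662 in replicates 2 and 3, and in P14 dMF1/2 mice 3242017 in replicate 1 against 6827386 and 6772169. At P16 it ran from 4597532 to 6772894. Without the collagens the sums of those 2 libraries were still the lowest, at 108659 and 114707 against 165493 to 236565 in the other 10. In each comparison between genotypes or days 0 of the 11 fibroblast markers passed the adjusted threshold. The part of this in the members' values was not tested. Among 13406 other genes the 10 most like this mean were Clcn4 (r = 0.99), Ufm1, Pls3, Tmed3, Ndfip1, Serp1, Map3k7cl, Ckap4, Krtcap2 and Plpp5 (r = 0.97). None of them is a class I gene, and 0 of the 10 lie on chromosome 17. Among 13414 genes, those whose log2 levels were most like H2-Q2 over the 12 libraries were Gm8909 (r = 0.97), H2-Q1 (0.96) and H2-D1 (0.95), all on chromosome 17. H2-Q2 was singled out after its values were seen.

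Neighbours in sequence or position touch 6 of the members. Of all stretches of 61 bases, the read length, in its annotated transcripts, H2-D1 shared 7.76% and H2-K1 5.62% exactly with another gene, mostly H2-Q genes, and Tapbp 1.93%. Tap1 and Tap2 shared 14 stretches with each other (0.246% and 0.366%). For B2m, Nlrc5, Psmb8 and Psmb9 the share was 0. Tap1 (chr17:34187553-34197225, plus strand) and Psmb9 (chr17:34181988-34187764, minus strand) overlap at their starts, and whether counting used the strand was not given in the sources used here. Psmb8 lies at chr17:34197721-34201454, Tap2 at chr17:34203527-34216321, Tapbp at chr17:33915899-33929288, H2-K1 at chr17:33996017-34000333 (minus strand) and H2-D1 at chr17:35262730-35267499. B2m is at chr2:122147686-122153083 and Nlrc5 at chr8:94472763-94527272, all in GRCm38.

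Other genes of the pathway were followed from lists. Of the other class I heavy chains and class I-like molecules 16 were tested within a day, and 0 differed between the genotypes at P14 or P16. Between the days 0 of 15 changed in control mice, with a median log2 change of 0.41 against 0.01 for all genes. The list holds H2-Q1, H2-Q2 and other genes near 0 in the libraries that stood apart, and without those 3 libraries the median was 0.29 in control and 0.0960 in dMF1/2 mice, where it was 0.33 with them. In dMF1/2 mice 1 of 15 rose, H2-Q10, a heavy chain best known as a secreted liver product, from 58.6 ± 8.70 to 118 ± 18.1 normalized reads (log2 change 0.997, adjusted p = 0.0219, limma). That count is near the 5.8% of all genes called in this comparison. Without the 3 libraries 0 passed. For H2-Q10, 15.5% of its 61-base stretches are shared with other class I genes. H2-Q4 was at 352 to 822 and Fcgrt, the neonatal Fc receptor, at 4583 to 5267 over the 12 libraries.

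Of 22 peptide loading and trimming genes 0 differed between the genotypes at either age, while 1 did at P16 with the replicates paired (Derl1, 0.27, adjusted p = 0.0482). The paired fit called 10.4% of all genes at P16 and 1.68% at P14. In control mice 3 of 22 were called from P14 to P16, against 14.5% of all genes. Of these 2 rose, Lnpep, an aminopeptidase of endosomal cross-presentation (2635 ± 274 to 3941 ± 41.5, log2 change 0.59, adjusted p = 0.00669), and Sppl2a, an intramembrane protease (1719 ± 429 to 2592 ± 304, 0.62, 0.0410). Syvn1, a ubiquitin ligase of the endoplasmic reticulum, fell by 0.22 on the log2 scale (1033 ± 37.2 to 889 ± 38.5, adjusted p = 0.0493). Lnpep also rose in dMF1/2 mice (2525 ± 223 to 3477 ± 421, 0.46, 0.0297), the 1 call of 22 there, against 5.8% of all genes. The trimming enzyme Erap1 gave 0.57 in control (adjusted p = 0.0525) and 0.52 in dMF1/2 mice (0.109), and the chaperones Calr, Canx and Pdia3 lay between -0.15 and 0.06 in both.

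Of 25 proteasome genes 0 differed between the genotypes at either age. From P14 to P16 in control mice 1 rose, the activator Psme4 (1570 ± 117 to 2250 ± 267, log2 change 0.52), and 3 fell, the core subunits Psmb2 (by 0.44), Psma7 (by 0.41) and Psma4 (by 0.28), 4 of 25 against 14.5% of all genes. In dMF1/2 mice Psme4 rose (0.38), and Psmb2 fell by 0.39 and Psma4 by 0.34, where 5.8% of all genes were called. The constitutive subunits that Psmb8 and Psmb9 replace, Psmb5 and Psmb6, gave -0.37 and -0.15 in control mice, and neither passed (adjusted p = 0.0715 and 0.282). Psmb10, the third interferon-induced subunit, gave -0.24 (adjusted p = 0.450).

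Of 24 transcription factors of class I genes 0 differed between the genotypes. With the replicates paired Irf8 was lower at P14 (-1.0004, adjusted p = 0.00623) and Irf8 and Rela at P16 (-0.66 and -0.43, 0.0163 and 0.0109). Of the 24, 3 rose from P14 to P16 in control mice and 0 fell, against 14.5% of all genes in either direction. They were Irf1, the interferon-response factor (5247 ± 1459 to 9392 ± 1966, log2 change 0.86, adjusted p = 0.0362), the NF-kappaB subunit Nfkb1 (1675 ± 166 to 2406 ± 354, 0.52, 0.0192) and the NF-Y subunit Nfya (769 ± 46.4 to 989 ± 150, 0.35, 0.0484). In dMF1/2 mice 0 of 24 changed, and Irf1 gave 0.71 (adjusted p = 0.107). The RFX factor Rfx5 gave 0.30 in control mice (adjusted p = 0.281).

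Of 14 interferon receptor and signalling genes 1 differed between the genotypes at P16, against 4.32% of all genes. Jak2, a kinase of the interferon-gamma receptor among others, was lower in dMF1/2 mice (3400 ± 868 in control and 1746 ± 219 normalized reads on the scaling of the P16 libraries, log2 difference -0.94, adjusted p = 0.0272, limma). Means ± SD set between the genotypes at P16 below are on that scaling too. Marker sums and values set between the days are on the scaling of all 12 libraries. Jak2 rose in control mice between the days (1791 ± 401 to 3351 ± 857, 0.90), as did Jak1 (0.34), which also rose in dMF1/2 mice (0.25). These were 2 of 14 in control and 1 of 14 in dMF1/2 mice, against 14.5% and 5.8% of all genes. Of 43 interferon-induced genes 0 differed between the genotypes at P16, and 1 with the replicates paired (Cxcl10, -0.62, adjusted p = 0.0385, limma), against 10.4% of all genes. From P14 to P16 in control mice 3 rose, the guanylate-binding proteins Gbp5 (1.05) and Gbp2 (0.50) and Parp14 (0.63), and Ifitm2 fell by 0.50, 4 of 43 against 14.5% of all genes. In dMF1/2 mice 0 of 43 changed, and the summed level of the 44 listed genes was 14553 to 16500 over all 12 libraries.

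Class II presentation, the pathway that shows peptides to helper T cells, was followed in 8 genes. Between the genotypes 0 of 8 differed at either age, and with the replicates paired H2-Ab1, a class II chain, was higher in dMF1/2 mice at P14 (1.22, adjusted p = 0.0202). From P14 to P16 1 of 8 fell in control mice, H2-DMb1, a chain of the peptide-exchange factor (66.6 ± 22.1 to 30.7 ± 5.62, log2 change -1.06, adjusted p = 0.0394), and 1 of 8 in dMF1/2 mice, H2-Ab1 (274 ± 24.9 to 90.4 ± 36.6, -1.68, 0.0193). The background was 14.5% of all genes in control and 5.8% in dMF1/2 mice. Both calls missed the threshold without some single library (up to 0.147 and 0.0685) and without the 3 P14 libraries.

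Among factors tied to immune privilege and immune suppression, 5 of 23 tested differed between the genotypes at P16, against 4.32% of all genes. Lower in dMF1/2 mice were Cd274, which encodes the T cell inhibitor PD-L1 (293 ± 136 in control and 68.3 ± 27.4, log2 difference -2.06, adjusted p = 0.0215), the prostaglandin E synthase Ptges (2190 ± 528 and 931 ± 147, -1.22, 0.0140), the cytokine Tgfb1 (1807 ± 219 and 932 ± 141, -0.96, 0.0111) and Mif (554 ± 30.5 and 363 ± 67.0, -0.62, 0.0440). Somatostatin (Sst) was listed at 0 in all 3 P16 control libraries and at 20.9 ± 14.4 in dMF1/2 libraries. Sst passed the filter of a mean of at least 10 normalized reads only through the dMF1/2 libraries, here and in its calls below. This count and the paired one below therefore hold 1 gene kept by the group where it is high. Its calls are descriptions only. With the replicates paired the count was 8 of 23, against 10.4% of all genes, with Igf1 higher (0.48) and Lgals1 (-0.50) and Thbs1 (-1.15) lower in dMF1/2 mice, and at P14 Sst was higher (3.51, adjusted p = 0.00645). edgeR called 0 higher and 4 lower, and DESeq2 1 and 6. Cd274 rose in control mice from 40.6 ± 30.8 at P14 to 289 ± 134 at P16 (log2 change 3.03, adjusted p = 0.00655, limma), Thbs1 rose (1.06), and Sst was listed at 0 in all 3 libraries at P16 after 1.98 to 12.3 at P14. These calls, 2 higher and 1 lower of 23, stand against 14.5% of all genes. In dMF1/2 mice 1 of 23 changed between the days, against 5.8% of all genes. It was Lgals1, an immunosuppressive galectin, which fell by 0.80.

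Markers of cell state and of other cells differed between the genotypes at P16 too. The unpaired fit called 4.32% of all genes there, and the median log2 difference over all genes was -0.00429. A single call in a list of 11 or 16 genes is near that share. Of 20 DP markers 6 were higher in dMF1/2 mice, Snap91 (3.28), Rspo3 (3.20), Alpl (2.45) and Nog (1.68) most, and Crabp1 was lower (-0.66), with sums of 88951 to 139986 in control and 160333 to 227333 in dMF1/2 libraries. Of 14 endothelial markers Plvap (-1.42) and Eng (-0.64) were lower, with a list median of -0.77 and sums of 4302 to 5849 and 3509 to 3632. Of 11 dermal sheath and pericyte markers Cspg4 was lower (-2.05), and 1 of the 11 had an estimate above 0 (median -0.25). Their sums were 40152 to 52323 in control and 25164 to 36877 in dMF1/2 libraries, without overlap. The myeloid marker Cd14 was lower too (-1.13). Of 16 dissociation genes 1 was called lower, Atf3 (-0.65), and 0 of the 16 had an estimate above 0 (median -0.35, from -0.65 to -0.05). With the replicates paired 13 DP markers were higher and 1 lower, 4 endothelial markers were lower (Plvap, Eng, Esam and Pecam1), and 4 dissociation genes were lower (Atf3, Ier2, Jun and Nr4a1). The paired share over all genes at P16 was 10.4%. The paired fit also called Abcc9 of the pericyte list (-0.38) and Kit (-1.12) lower, and the fibroblast marker Pdgfra higher (0.43). At P14 the paired fit called 3 DP markers higher and 2 lower, against 1.68% of all genes, where the unpaired fit called 0. The part of these in the immune privilege differences was not tested.

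Most of the list calls rested on all libraries being kept. Of the pathway and immune privilege calls in control mice between the days, Lnpep, Psmb2, Psme4, Jak1 and Cd274 passed in each fit that left out 1 library (highest adjusted p = 0.0415), and the others named did not. The calls named in dMF1/2 mice between the days each missed the threshold without some library, with highest adjusted p from 0.0684 for Lgals1 to 0.157 for Jak1. The P16 calls of Jak2 and the immune privilege genes each missed the threshold without some library, with highest adjusted p from 0.0518 for Tgfb1 to 0.148 for Mif. Without the 3 P14 libraries low in H2-Q1, control mice gave 1 higher and 0 lower loading genes, 0 and 1 proteasome genes, and 0 transcription factors, interferon signalling or interferon-induced genes.

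Markers of cell state and of other cells also changed in control mice between the days. Over all genes 14.5% were called in this comparison, and 6.26% were called higher. Of 20 DP markers 9 fell, most of all Rspo3, which fell by 2.74 on the log2 scale, Corin, which fell by 2.22, Alpl, which fell by 1.97, and Snap91, which fell by 1.94, and the summed level of all 20 went from 169172 to 241760 at P14 down to 88951 to 139986 at P16. Of 14 endothelial markers 3 rose (Emcn, Vwf, Esam) and 2 fell (Tek, Ramp2), with sums of 3957 to 4931 and 4302 to 5849. Of 16 genes induced by tissue dissociation 4 rose (Hspa1b, Hspa1a, Atf3, Btg2), with sums of 302649 to 483857 and 452282 to 653918. Among the other lists, Cspg4 rose (5198 ± 1989 to 12322 ± 3062, 1.30), as did the melanocyte factor Mitf (0.52) and Kit (1.53), while S100a8 fell by 1.96 and Msx2 of the follicle keratinocyte list fell by 0.87. Sums of the immune markers were 464 to 520 at P14 and 490 to 671 at P16, and those of melanocyte markers 514 to 669 and 810 to 903. The part of these markers in the rise of Nlrc5 was not tested. Ramp2 was the 1 called gene of these marker lists between the days in dMF1/2 mice, where it fell by 0.51, against 5.8% of all genes called.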

How the data were processed

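The authors sorted YFP-positive cells from dissociated skin (trypsin overnight, then collagenase), depleted ribosomal RNA, made directional libraries (NEBNext Ultra Directional) and sequenced single-end reads of 61 bases. Trimmomatic, TopHat 2 (mm10), HTSeq-count (GRCm38.p4 genes) and DESeq2 were applied by the authors. The deposited values are a normalized signal, reads divided by a size factor, in 1 table per day of 6 libraries, with 15209 and 15334 protein-coding genes. The authors' fold change and p columns were not used. All values (100%) came out as whole reads within 0.01 read, and the recovered counts were rescaled over 12 libraries by median of ratios to compare days.

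Genotypes were compared within a day, on each table's own scaling, and days over 4 groups with limma 3.58.1 (trend) on log2(normalized reads + 1), keeping genes whose mean was 10 or more, with Benjamini-Hochberg adjustment over all genes and a threshold of 0.05. A fold change on this scale understates that of low genes. The exact permutation test was two-sided over 3 against 3. Scripts were tested on simulated data. DESeq2 1.42.0 and edgeR 4.0.16 were run on the recovered counts, where edgeR called 603 and DESeq2 1114 genes between the genotypes at P16. Same-numbered libraries of a day deviated together (r = 0.29 to 0.57 at P14, 0.27 to 0.32 at P16), so numbers were taken as pairs within a day, although the labels name no litter or batch. The pairing was thus read from the same values that the paired fits test. Other matchings of the libraries were not compared. Per the study's text each library holds the DP of 1 mouse, so p values measure the spread between mice. The members and lists were chosen with earlier results of these data known. Named genes were every member, the called genes of each list (the 4 largest where more were called) and defining markers of other cells. Outside this rule, Erap1, Calr, Canx, Pdia3, Psmb5, Psmb6, Psmb10, Rfx5, H2-Q4, Fcgrt, the 5th immune privilege gene and Crabp1 at P16, the 5th endothelial marker between the days, the paired calls and the H2-Q2 relatives were named after their values were seen. R 4.3.3 and Python 3.11.15 were used. A result of the paired comparison at P14 is not reported here.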

Additional observations from a re-analysis of the deposited data

How the results depend on the processing

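Between the genotypes at P14 and at P16, and for the interaction of genotype and day, 0 of the 9 members were called under each alternative, and the replicate block changed no call there. For the change from P14 to P16 in control mice 1 member was called, 0 with no filter on low values, 0 with the compared libraries only, 0 on leaving out the 3 P14 libraries with at most 3 reads of H2-Q1 or replicate 1 of both genotypes at P14, and 0 to 2 without single libraries. Across the days the numbers do not pair the mice (correlations of -0.16 to 0.21). The replicate block in limma gave 2 calls in control (Nlrc5 and B2m, with 16.7% of all genes called) and 2 in dMF1/2 mice (Nlrc5 and B2m, 7.04%), and edgeR with this block gave 2 and 0. DESeq2 called 1 in dMF1/2 mice. Leaving out the 3 libraries, leaving out replicate 1 and edgeR with the block were chosen after seeing the data, and where 1 library of a group was left it is assumed to vary like the other groups.

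Of 699 alternative values of single members 43 reversed in sign, 0 of them past the threshold and with a largest size of 0.21. The log2 differences that reversed were those of B2m at P14 with DESeq2 (-0.0105), edgeR (-0.00876), the joint fit of 12 libraries (-0.00234), and without the 3 libraries (-0.0284) or replicate 1 (-0.072), and H2-K1 at P16 in the joint fit (-0.00304). For the changes between days they were Tapbp in control (-0.0819 under both omissions) and in dMF1/2 mice (-0.117 and -0.0569), and, in dMF1/2 mice, H2-K1 (-0.0831 and -0.0325) and Tap1 (-0.0293 without the 3 libraries). For the interaction they were Nlrc5 with DESeq2 (-0.017), edgeR (-0.00537), edgeR with the replicate block (-5.13e-05) and a pseudocount of 10 (-0.0143), and H2-D1 without the 3 libraries (-0.00353). Without single libraries the P14 difference ranged from -0.0312 to 0.351 for H2-K1, -0.156 to 0.0975 for B2m, -0.00065 to 0.156 for Tap2 and -0.0337 to 0.492 for Psmb8, and the P16 difference from -0.0486 to 0.0575 for H2-K1, -0.174 to 0.0565 for B2m and -0.303 to 0.0197 for Psmb8. The control change between days ranged from -0.0563 to 0.0998 for Tap2 and -0.0819 to 0.128 for Tapbp, that of dMF1/2 mice from -0.0325 to 0.292 for H2-K1, -0.0719 to 0.155 for Tapbp and -0.333 to 0.155 for Psmb8, and the interaction from -0.0413 to 0.531 for H2-D1 and -0.208 to 0.164 for Nlrc5. The cause was not tested.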
